A study of Sus scrofa domesticus with 11 samples.

Results

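Cytosolic ribosomal protein genes were followed in the liver RNA of preterm piglets fed by vein, with RPS29 set against the rest of the family. Members were the protein-coding rows of the deposited gene table whose symbol is RPL or RPS followed by a number, or RPSA, RPLP0, RPLP1 or RPLP2, leaving out the RPS6K kinases. The rule gave 54 of 22029 genes, and 53 of them had enough counts to be tested. Of the 54, 22 are components of the small ribosomal subunit, 26 are components of the large subunit, and 6 are paralogues (RPL3L, RPL7L1, RPL22L1, RPL26L1, RPL36AL and RPS27L). Of 80 human ribosomal protein genes listed for reference, 48 were found under the rule.

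Yorkshire piglets were born preterm and received parenteral nutrition, and liver was taken at day of life 15. The 5 SEFA-6179 piglets were given SEFA-6179, a code-named compound, at 48 mg/kg. The 6 MCT piglets received the vehicle in the same volume, 3 ml/kg (medium-chain triglyceride oil, from knowledge of the study). All 11 libraries share preterm birth, parenteral nutrition and breed, and sex and litter are not given here. Each library was taken as 1 animal, so p-values weigh the difference between groups against the spread between these libraries.

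The cytosolic ribosome translates all nuclear-encoded mRNAs, and each of its proteins is normally present as a fixed part of the particle, so their genes tend to be expressed in step. Their mRNAs, together with those of translation elongation factors, begin with a terminal oligopyrimidine (TOP) tract, through which mTOR and LARP1 control how much they are translated. In liver, a tissue that exports much protein, ribosomal protein mRNAs are abundant. RPS29 encodes a small zinc-binding protein in the head of the small subunit, and RPS29 is among the genes mutated in human Diamond-Blackfan anaemia.

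Total counts ran from 16821201 to 19215097 in SEFA-6179 libraries, against 15974977 to 23416071 in MCT libraries. Hepatocyte markers were abundant in every library: 11 of the 12 listed were in the table, and their summed level ran from 104000 to 192600 CPM in SEFA-6179 livers and from 73470 to 178700 CPM in MCT livers. CPM are read counts put on a common library size with TMM scaling. The members together took 2.13% to 2.93% of the counts of a SEFA-6179 library and 2.07% to 3.21% of those of an MCT library. Their total share thus overlapped widely between groups. In bulk liver RNA, fewer cells of a type and less RNA per cell cannot be told apart.

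RPS29 (ENSSSCG00000038507, chromosome 1, 179454561 to 179461631, minus strand in the deposited table, whose genome build the sources used here do not name) was the member that passed the test. Its raw counts in SEFA-6179 replicates 1 to 5 were 8178, 12878, 11206, 14138 and 14562, and in MCT replicates 1 to 6 they were 3715, 4809, 3884, 4681, 5906 and 6614. Scaled for depth, these were 464, 744, 579, 842 and 897 CPM in SEFA-6179 livers and 184, 208, 192, 222, 332 and 387 CPM in MCT livers. The groups did not overlap: the lowest SEFA-6179 library, replicate 1, lay above the highest MCT library, replicate 6. RPS29 averaged 705 ± 181 CPM in SEFA-6179 livers (SD, n = 5) and 254 ± 84.4 CPM in MCT livers (SD, n = 6), and every mean below is given with its SD over the same livers.

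RPS29 rose 2.77-fold with SEFA-6179, a log2 fold change of 1.47 ± 0.24 (SE; edgeR quasi-likelihood test, adjusted p = 0.0284 over all 13671 genes tested). It was the 1 member of 53 past the threshold of 0.05 by edgeR, where 0.219% of all tested genes were called and 0.117% were called higher. RPS29 was also the 1 member whose groups did not overlap, as 0.673% of all tested genes did in the higher direction. In the authors' deposited table, which calls 1.16% of its genes, its log2 fold change was 1.47 with an adjusted p of 2.7e-06. DESeq2, which the authors' processing notes also name, called 2.06% of the genes it tested and gave RPS29 an adjusted p of 2.44e-06. By edgeR the call ended without SEFA-6179 replicate 4 or 5 or without MCT replicate 1, 2, 3 or 4 (highest adjusted p 0.106), while the log2 fold change stayed between 1.37 and 1.63 over the 11 tests that left out 1 library. RPS29 was singled out with earlier results of these libraries known.

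The rise of RPS29 was then measured against the other members. RPS29 made up 2.28%, 2.32%, 2.32%, 2.87% and 3.21% of the summed counts of the 54 members in SEFA-6179 replicates 1 to 5. Ribosomal protein rows without a symbol, given further below, are not in that sum. In MCT replicates 1 to 6 its share was 0.795%, 0.953%, 1.13%, 0.909%, 1.09% and 1.29%. Wilson intervals at 95% on these shares were at most 0.103 percentage points wide, and they cover counting error only. As shares, SEFA-6179 replicate 1, the lowest of its group in CPM, lay next to replicates 2 and 3, and the groups again did not overlap.

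**Figure D1:**
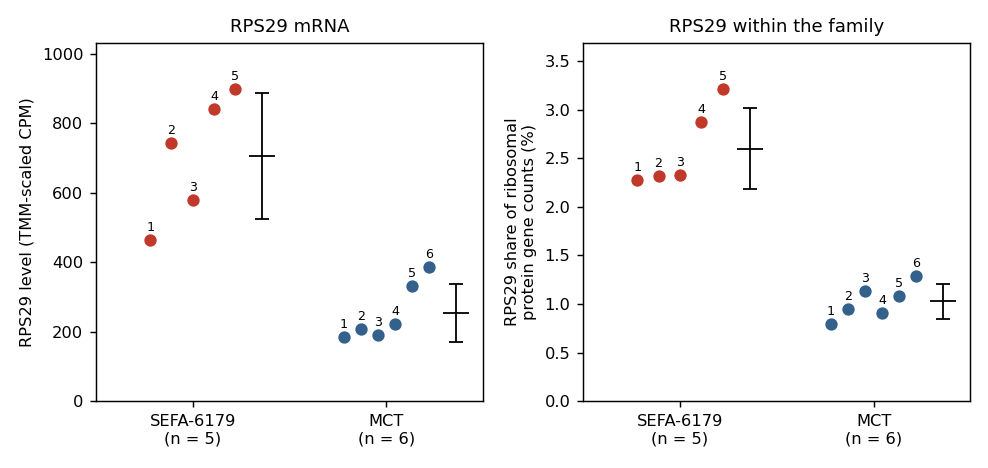
RPS29 in each library as TMM-scaled CPM (left) and as a percentage of the summed counts of the 54 members (right). Points are libraries with their replicate number, and the bar beside each group is its mean ± SD. SEFA-6179 libraries lie between 464 and 897 CPM and MCT libraries between 184 and 387 CPM, and the shares run from 2.28% to 3.21% in SEFA-6179 and from 0.795% to 1.29% in MCT libraries.

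When each library was scaled by its summed counts over the other 52 tested members in place of its TMM size, RPS29 was still higher in SEFA-6179. Its log2 fold change relative to the rest of the family was 1.36 ± 0.21 (SE), a 2.57-fold difference (edgeR quasi-likelihood test, adjusted p = 0.0260 over all genes). With this scaling 9 of 13671 genes were called, 0.0658%, and RPS29 was the 1 member among them. In each of the 5 SEFA-6179 libraries, none of the other 52 members was raised above its own MCT mean by as much as RPS29. This relative call ended without SEFA-6179 replicate 2, 4 or 5 or without MCT replicate 1 or 4 (highest adjusted p 0.0999), with log2 fold changes of 1.27 to 1.44 over the 11 tests that left out 1 library. Summed counts give most weight to the members with many counts. Scaled by the geometric mean of the other members instead, over all libraries, the log2 fold change of RPS29 was 1.28 (edgeR adjusted p = 0.0268).

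The members under the rule leaned upward without RPS29, while of the 11 tested ribosomal protein rows without a symbol, given further below, 5 lay above 0. Of the other 52 tested members 38 were above 0 on the log2 fold scale and the median was 0.13, beside 49.8% of all tested genes and a median of -0.0015. None of these 52 passed by edgeR, 8 had an unadjusted p below 0.05 and all 8 were higher, and DESeq2 called 1 of them, RPS28. Including RPS29, 17.0% of the tested members had an unadjusted p below 0.05 and a higher level with SEFA-6179, beside 5.24% of all tested genes; no member had such a p and a lower level, beside 5.52% of all tested genes. Over all 53 members the median was 0.13, and it was 0.056 when SEFA-6179 replicate 2 was left out and 0.055 when MCT replicate 3 was. It was 0.22 when either SEFA-6179 replicate 1 or MCT replicate 6 was left out. Because the members were chosen with results of these libraries known, these counts are a description.

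**Figure D2:**
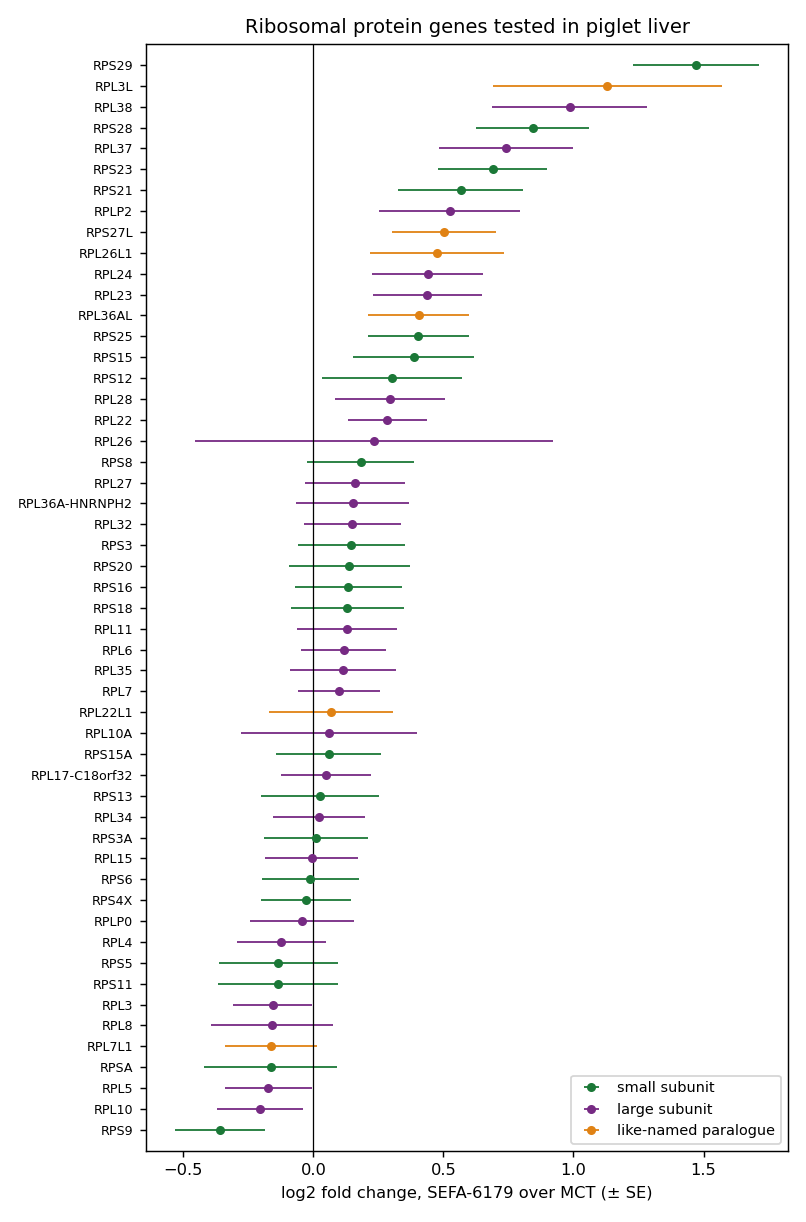
Log2 fold change of SEFA-6179 over MCT, ± SE, for 52 of the 53 tested members, coloured by the subunit they belong to or as paralogues. RPS29, at 1.47, stands above RPL3L, RPL38 and RPS28, and RPS9, at -0.36, is lowest.

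Small-subunit genes spread from RPS29 at the top to RPS9 at the bottom: 16 of 22 were above 0 (median log2 fold change 0.14), and without RPS29 the median was 0.13. RPS28, whose protein sits close to the exit of the mRNA channel, was next to RPS29. RPS28 was at 360, 677, 496, 492 and 433 CPM in SEFA-6179 replicates 1 to 5, against 206, 216, 228, 264, 304 and 426 CPM in MCT replicates 1 to 6. All SEFA-6179 libraries except replicate 1 lay above all MCT libraries. Its log2 fold change was 0.84 ± 0.22 (SE), which did not pass by edgeR (adjusted p = 0.150), while DESeq2 called it (adjusted p = 0.0141). The authors' deposited table, whose processing notes also name DESeq2, called it too (adjusted p = 0.0158), on the same counts.

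RPS23, named after its values were seen, had a log2 fold change of 0.69 ± 0.21 (SE; edgeR adjusted p = 0.224). RPS21, a component on the solvent side of the small subunit, was at 475 ± 125 CPM in SEFA-6179 livers, against 321 ± 104 CPM in MCT livers (edgeR adjusted p = 0.408). RPS20, which lies in the head of the small subunit, was at 640 ± 141 CPM in SEFA-6179 livers, against 581 ± 183 CPM in MCT livers, a log2 fold change of 0.14 ± 0.23 (SE). The lowest fold changes belonged to RPS9, a core protein that binds ribosomal RNA early in assembly, and to RPSA, also known as the laminin receptor precursor. RPS9 was at 207, 302, 253, 239 and 232 CPM in SEFA-6179 livers and 348, 300.5, 205, 365, 361 and 318 CPM in MCT livers, and its groups overlapped through MCT replicates 2 and 3. Its log2 fold change was -0.36 ± 0.17 (SE; edgeR adjusted p = 0.481). RPSA had a log2 fold change of -0.16 ± 0.25 (SE).

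Large-subunit genes had a median log2 fold change of 0.12, with 18 of 25 tested members above 0. RPL38, which in mouse embryos is needed for translation of certain Hox mRNAs, was at 215, 472, 360, 523 and 424 CPM in SEFA-6179 livers, against 144, 118, 166, 150, 293 and 338 CPM in MCT livers. SEFA-6179 replicate 1 again lay among the MCT libraries, below MCT replicates 5 and 6. RPL38 averaged 399 ± 119 CPM in SEFA-6179 livers, against 201 ± 90.8 CPM in MCT livers, with a log2 fold change of 0.99 ± 0.30 (SE; edgeR adjusted p = 0.224). RPL37, a zinc-binding protein, was at 388 ± 112 CPM in SEFA-6179 livers, against 232 ± 84.7 CPM in MCT livers (log2 fold change 0.74 ± 0.26, SE; edgeR adjusted p = 0.297).

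RPLP2, an acidic protein of the stalk that recruits elongation factors, was at 454 ± 114 CPM in SEFA-6179 livers, against 316 ± 138 CPM in MCT livers (edgeR adjusted p = 0.508). RPL22, an RNA-binding component whose row in the deposited table carries the description of another gene, was at 329 ± 42.6 CPM in SEFA-6179 livers, against 270 ± 35.4 CPM in MCT livers (log2 fold change 0.28 ± 0.15, SE). RPL34 differed least among these, at 528 ± 84.1 CPM in SEFA-6179 livers, against 521 ± 99.9 CPM in MCT livers. The members below 0 included RPL10, which enters the large subunit late in its maturation, at 843 ± 122 CPM in SEFA-6179 livers, against 972 ± 124 CPM in MCT livers. RPL5, which together with RPL11 and a small ribosomal RNA binds MDM2, was at 667 ± 91.9 CPM in SEFA-6179 livers, against 753 ± 114 CPM in MCT livers. RPL4, which lines part of the tunnel through which the new protein leaves, was at 921 ± 112 CPM in SEFA-6179 livers, against 1004 ± 157 CPM in MCT livers. The edgeR adjusted p of RPL22, RPL34, RPL10, RPL5 and RPL4 lay between 0.518 and 0.983, so none passed.

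Among the paralogues, RPL3L, which in human and mouse is expressed mainly in striated muscle, had the second highest log2 fold change of the family, 1.13 ± 0.44 (SE), but it did not pass (edgeR adjusted p = 0.352). Its counts were low, at 48, 64, 69, 92 and 127 with SEFA-6179 and 64, 21, 25, 15, 55 and 63 with MCT. RPL3L overlaps NDUFB10 on the opposite strand (mean count 1617), and without a stated strand setting their reads cannot be told apart. RPS27L, a p53 target named after its values were seen, had a log2 fold change of 0.50 ± 0.20 (SE; edgeR adjusted p = 0.362). RPL7L1 went below 0, at 58.5 ± 11.6 CPM in SEFA-6179 livers, against 65.5 ± 15.6 CPM in MCT livers.

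A few members had far fewer reads than the family. RPL29 had at most 12 counts in any library and was not tested, and RPL10A had a mean count of 20.9. RPL26 swung between libraries, from 1.79 to 17.4 CPM in SEFA-6179 livers and from 2.56 to 26.6 CPM in MCT livers, so its log2 fold change of 0.23 carried an SE of 0.69. RPL10A was at 1.14 ± 0.43 CPM in SEFA-6179 livers, against 1.10 ± 0.19 CPM in MCT livers. Genes of this family have many near copies in mammalian genomes, and whether reads of these members were assigned elsewhere was not tested. RPS29 has a large count in every library, and the 1 row that overlaps it on the opposite strand has a mean count of 1.18. For 6 members an opposite-strand gene held over 10% of the member's mean count, and RPS29 was not among them.

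Gene length was considered because ribosomal protein genes are short. Deposited lengths, in bases of the gene model, ran from 372 for RPS28 to 7433 for RPL4 with a median of 1566, and that of RPS29 was 1343, while the median over all tested genes was 4382. The shortest of 10 equal length bins of all tested genes, 1369 genes of at most 1620 bases, had a median log2 fold change of 0.10, and the medians of the other 9 bins lay between -0.020 and 0.018. The shortest bin held 27 of the 53 tested members, and 20 of these 27 lay above 0, beside 61.5% of all genes in the bin. RPS29 falls in that bin, where 10 of 1369 genes had a higher log2 fold change. Over the 53 members, fold change and length had a Spearman correlation of -0.26, which is across genes of the same libraries.

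**Figure D3:**
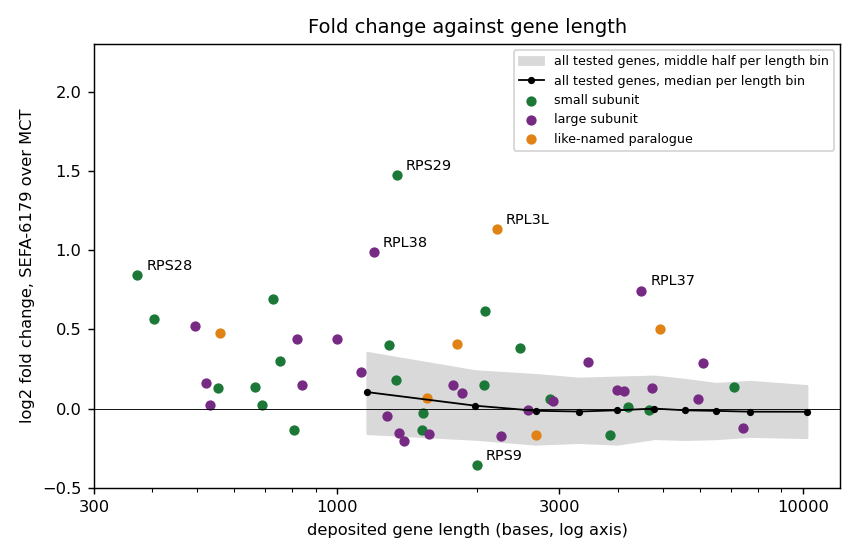
Log2 fold change of SEFA-6179 over MCT against deposited gene length on a log axis. Points are the 53 tested members, the line joins the medians of all tested genes in 10 length bins (each placed at its median length), and the grey band runs between their quartiles; RPS29, RPL3L and RPL38 lie far above the band, whose median is 0.10 in the shortest bin.

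With offsets that remove each library's trend on gene length, the log2 fold change of RPS29 was 1.39 and its adjusted p 0.0186 by edgeR, where 0.234% of genes were called. Of the other 52 members 31 lay above 0 with the offsets, against 38 without them, and their median was 0.083 with the offsets, against 0.13 without them. Over all tested genes, 6701 of 13671 lay above 0 with the offsets, and the median was -0.0075. RPS28 went to 0.60, RPS21 to 0.32 and RPL38 to 0.90 on the log2 scale, and RPL34 turned to -0.23. How a length trend between libraries arose was not tested.

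Levels of different members were compared as deposited FPKM, which divides by the gene model length. Mean FPKM over all libraries had a median of 232 over the 54 members, and 42 members reached at least 100. Among the members RPS28 was highest, at 1304 ± 307 FPKM in SEFA-6179 livers, against 729 ± 218 FPKM in MCT livers. Its mean over all libraries was 991 FPKM. RPLP1 and RPS7, ribosomal protein rows without a symbol and so outside the rule, were higher, with means of 1739 and 1123 FPKM. RPL34 was at 981 FPKM in SEFA-6179 livers, against 970 FPKM in MCT livers, and RPS21 at 1163 FPKM in SEFA-6179 livers, against 789 FPKM in MCT livers. The lowest tested members were RPL10A, RPL3L and RPL26, with mean FPKM of 0.186, 1.47 and 7.74 over all libraries. RPS29 stood at 519 ± 133 FPKM in SEFA-6179 livers, against 188 ± 62.3 FPKM in MCT livers, on either side of the family median. A long model lowers FPKM for the same counts: RPS20, with 7108 bases and a mean count of 11250, had 84.6 FPKM.

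Libraries differed in the level of the members as a set within each group. The median difference of the other 52 members from their own MCT mean, on log2 CPM, was -0.25, 0.40, 0.10, 0.31 and 0.24 in SEFA-6179 replicates 1 to 5. In MCT replicates 1 to 6 it was -0.035, -0.15, -0.42, -0.00014, 0.30 and 0.37. The family was thus low in SEFA-6179 replicate 1 and MCT replicate 3 and highest in SEFA-6179 replicate 2 and MCT replicate 6. RPS29 was likewise lowest in replicate 1 among SEFA-6179 livers and highest in replicate 6 among MCT livers, but its highest SEFA-6179 value was in replicate 5 and its lowest MCT value in replicate 1.

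Marker genes of the other cell types that liver can hold were summed in each library. Erythroid markers, of cells that are rich in ribosomal protein mRNA while immature, were summed over the 11 of 14 listed genes in the table. The sum was 232, 508, 448, 294 and 359.5 CPM in SEFA-6179 replicates 1 to 5. In MCT replicates 1 to 6 it was 112, 190, 147, 356, 192 and 445 CPM. Of the 6 erythroid markers tested, 1 was above 0, and their median log2 fold change was -0.32, opposite in sign to the difference in the sums. Macrophage markers (12 of 14 in the table) summed to 911 to 3688 CPM in SEFA-6179 livers, against 1577 to 2871 CPM in MCT livers. Of the 12 tested, 9 were above 0. Lymphocyte markers were low, at 12.7 to 41.4 CPM for T and NK cells (13 of 14) and 3.51 to 8.56 CPM for B cells (8 of 9) in SEFA-6179 livers, against 12.1 to 38.2 and 2.89 to 5.68 CPM in MCT livers. Above 0 were 10 of 11 tested T and NK cell markers and 2 of 2 tested B cell markers.

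Cholangiocyte markers (9 of 11) summed to 167 to 244 CPM in SEFA-6179 livers, against 181 to 470 CPM in MCT livers, and all 8 tested were below 0. Endothelial markers (10 of 11) summed to 573 to 876 CPM in SEFA-6179 livers, against 488 to 798 CPM in MCT livers, and all 10 were above 0. Stellate cell markers (10 of 10) summed to 520 to 832 CPM in SEFA-6179 livers, against 662 to 1047 CPM in MCT livers, and 2 of 9 tested were above 0. Among the hepatocyte markers 8 of 11 tested were above 0. No marker in these lists was called by edgeR or stood at 0 in every library, and their part in the levels of RPS29 and the family was not tested.

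**Figure D4:**
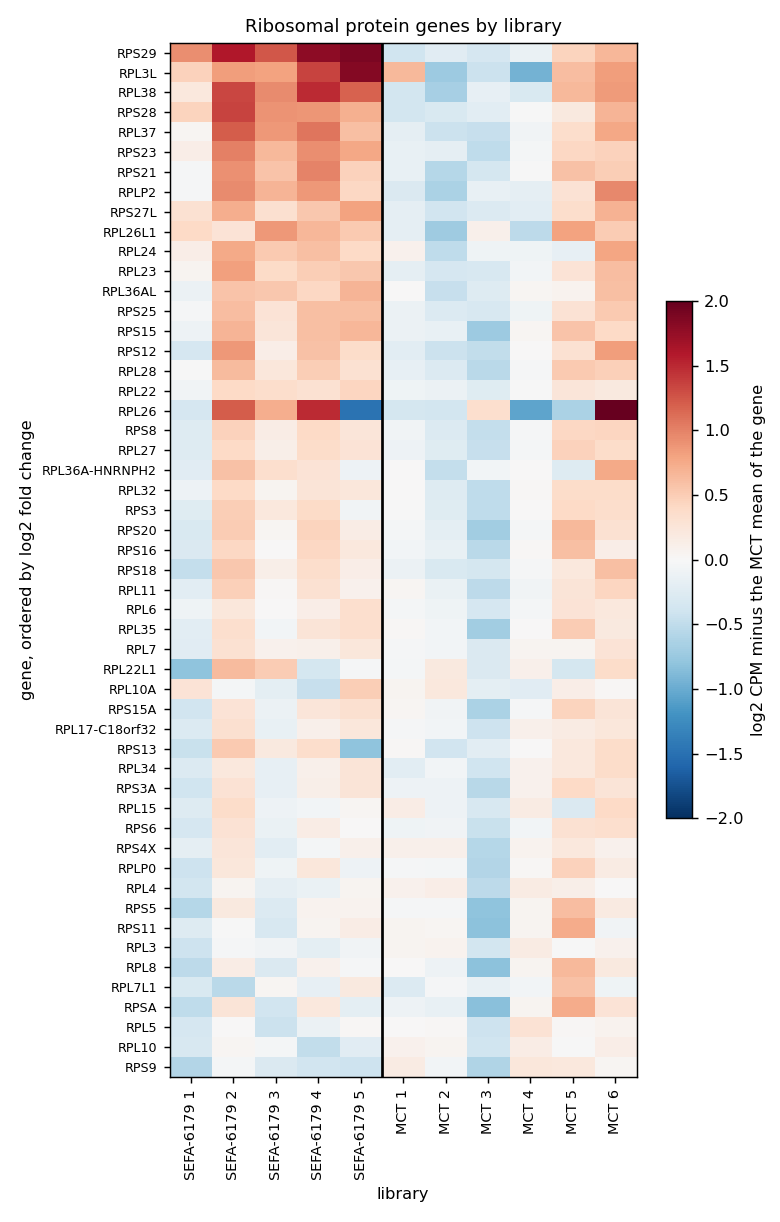
Log2 CPM of 52 of the 53 tested members, each minus its mean over the MCT libraries, by library, with genes ordered by log2 fold change; red is above 0 and blue below it. RPS29 is the top row and is raised in all 5 SEFA-6179 libraries, while columns such as SEFA-6179 replicate 1 and MCT replicate 3 are low for most genes.

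A further 12 protein-coding rows of the deposited table have no symbol there but are ribosomal protein genes by their description or by gene identifier in a reference list, so they fell outside the rule. Of these, 5 of 11 tested lay above 0, with a median log2 fold change of -0.0098. That count rose without some libraries: it was 10 of 11 without MCT replicate 5 (median 0.081) and 8 of 11 without SEFA-6179 replicate 1 (median 0.048). It was 9 of 11 without both MCT replicate 5 and SEFA-6179 replicate 4 (median 0.086). It was 7 of 11 without MCT replicate 6 and 6 of 11 without MCT replicate 1 or SEFA-6179 replicate 3. It stayed at 5 of 11 without MCT replicate 2, 3 or 4 or SEFA-6179 replicate 2, 4 or 5 (median -0.10 without MCT replicate 3). RPL7A, a large-subunit protein, was at 741 ± 109 CPM in SEFA-6179 livers, against 1063 ± 246 CPM in MCT livers (log2 fold change -0.52 ± 0.20, SE; edgeR adjusted p = 0.349). RPL37A and RPL30 went the other way, with log2 fold changes of 0.63 ± 0.27 and 0.53 ± 0.21 (SE; edgeR adjusted p of 0.405 and 0.356). These 3 were named after their values were seen, none passed, and with these rows included RPS29 stayed the 1 ribosomal protein gene called by edgeR.

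Other mRNAs that carry a TOP tract lay mostly below 0. Of 17 tested, such as elongation factors and subunits of EIF3, 2 were above 0, and the median log2 fold change was -0.19. None passed by edgeR, 2 had an unadjusted p below 0.05, beside 10.8% of all tested genes, and DESeq2 called EIF4A2 (adjusted p = 0.0247), beside 2.06% of the genes it tested. EIF4A2, a helicase of translation initiation, was at 319, 270, 313, 248 and 317 CPM in SEFA-6179 livers. These lay above all MCT libraries, which ran from 199 to 238 CPM, as did 0.673% of all tested genes. The log2 fold change of EIF4A2, the gene with the smallest p of this list, was 0.41 ± 0.13 (SE; edgeR adjusted p = 0.265). PABPC1, the poly(A)-binding protein, was at 444 ± 45.9 CPM in SEFA-6179 livers, against 608 ± 151 CPM in MCT livers (log2 fold change -0.45 ± 0.19, SE; edgeR adjusted p = 0.407).

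Genes of ribosome biogenesis, which make and process ribosomal RNA and assemble the subunits, also lay mostly below 0, with 4 of 29 above it and a median of -0.22. The count was 9 of 29 without SEFA-6179 replicate 2 (median -0.10) and 8 of 29 without MCT replicate 5 (median -0.092). None passed by edgeR and none by DESeq2, and 2 of 29 had an unadjusted p below 0.05, beside 10.8% of all tested genes. NOP2, which methylates ribosomal RNA, was at 15.3 ± 1.98 CPM in SEFA-6179 livers, against 20.7 ± 3.49 CPM in MCT livers (edgeR adjusted p = 0.298). NCL, nucleolin, was at 133 ± 27.4 CPM in SEFA-6179 livers, against 170 ± 11.7 CPM in MCT livers (edgeR adjusted p = 0.406).

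Of 11 genes that control TOP mRNA translation or ribosome production, 5 lay above 0 (median -0.034), none passed by edgeR or DESeq2, and 1 had an unadjusted p below 0.05, beside 10.8% of all tested genes. That gene was MYC, a transcription factor that drives ribosome biogenesis, at 26.7, 9.76, 24.4, 25.8 and 25.9 CPM in SEFA-6179 livers and 43.3, 33.1, 28.1, 36.6, 65.7 and 35.4 CPM in MCT livers. MYC was lower in each of the 5 SEFA-6179 livers than in any MCT liver, as were 0.819% of all tested genes, with a log2 fold change of -0.84 ± 0.27 (SE; edgeR adjusted p = 0.248). RPTOR, which brings substrates to mTOR, had a log2 fold change of 0.26 ± 0.14 (SE; edgeR adjusted p = 0.529). The difference in direction between these lists and the ribosomal protein genes was not tested.

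**Figure D5:**
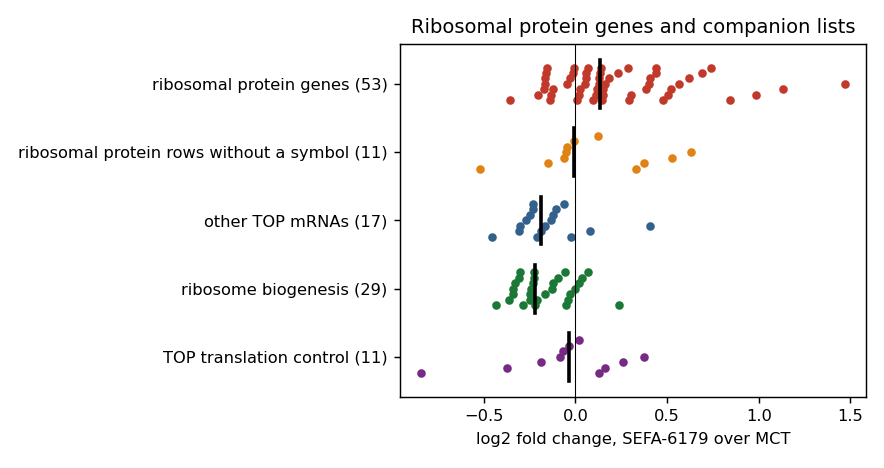
Log2 fold change of SEFA-6179 over MCT for every tested gene of the ribosomal protein family, of the ribosomal protein rows without a symbol, and of 3 companion lists. Points are genes, black bars are medians (0.13, -0.0098, -0.19, -0.22 and -0.034 down the page), and numbers in brackets count genes.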

How the data were processed

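Per the file headers, the authors deposited raw read counts per gene, FPKM values, a normalized signal (counts over a library size factor) with its group means, and a log2 fold change with p-values and adjusted p-values. The submitters' processing notes name DESeq2 1.20.0, featureCounts 1.5.0-p3, HISAT2 2.0.5 and StringTie 1.3.3b. The sources used here name no genome build, annotation or strand setting.

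The main test was edgeR 4.0.16 (R 4.3.3) on the deposited counts: filterByExpr (minimum count 10), TMM, robust quasi-likelihood fit over all 11 libraries, two-sided, Benjamini-Hochberg adjustment over 13671 genes, threshold 0.05. SEs come from the fold change and F statistic. A further fit scaled libraries by the other members' counts. Length offsets came from a per-library lowess trend (span 0.3) on log2 gene length. DESeq2 1.42.0 and limma 3.58.1 were alternatives. Per-library differences used log2(CPM + 0.5). Scripts were tested on simulated counts.

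The members, gene lists and tests were chosen with earlier results of these data known. Genes named were RPS29, members past the threshold or with separate groups, the 5 highest and 5 lowest fold changes, the 3 highest and 3 lowest in FPKM, the 3 shortest and 3 longest, and per companion list genes past the threshold or the 2 with the smallest p. Any 2 libraries differed beyond counting noise (chi-square per degree of freedom at least 34.2). The values of 1 tested member are not reported here, though counts and medians over the members include it.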

Additional observations from a re-analysis of the deposited data

Results flagged for a closer look

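Of 40 sets of values (a named gene in 1 group), 4 had a value that stood apart, where chance gives about 1 in 20. RPL10 stood at 732 CPM for MCT replicate 3, while the other MCT livers held 963 to 1066 CPM. RPL4 stood at 693 CPM for the same animal, while the other MCT livers held 1001 to 1106 CPM. The median difference of the members other than RPS29 was also lowest there. RPL7L1 stood at 96.5 CPM for MCT replicate 5, while the others held 53.1 to 63.5 CPM. RPL26 stood at 26.6 CPM for MCT replicate 6, while the others held 2.56 to 7.52 CPM.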

How the results depend on the processing

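RPS29 stayed higher with SEFA-6179 in all 23 alternatives and kept its call in the 11 alternative scalings, filters and tests that used all libraries or the replicate block. Without MCT replicate 5 and SEFA-6179 replicate 4 it was 1.499 (adjusted p = 0.0610) and, relative to the other members, 1.34 (adjusted p = 0.0657); without 1 library it ran from 1.37 to 1.63 and from 1.27 to 1.44. Members called were 2 by DESeq2, 0 without that pair of libraries (edgeR, 10 at an unadjusted p below 0.05) and 0 or 1 without 1 library (edgeR, 7 to 15). Genes called were 276 by DESeq2, 60 by limma, 8 with the replicate block, 13 with the block and length offsets (chosen after seeing the data), 1 without that pair and 0 to 53 without 1 library. Same-numbered libraries were not treated as paired in the main test, because the labels state no pairing. Their correlations over genes (-0.19 to 0.24) cannot exclude a shared litter or batch. The replicate block also left out MCT replicate 6, which has no same-numbered SEFA-6179 library. Under the block RPS29 was at 1.62 (edgeR adjusted p = 0.0337), and leaving out MCT replicate 6 alone gave 1.63. The sign turned for RPL34 with length offsets (-0.23, -0.24 with the block, and -0.225 when estimated without the members, also chosen after seeing the data) and without 1 library (-0.052 to 0.10), for RPL26 without the pair (-0.24) and without 1 library (-0.087 to 1.09), for RPL10A (-0.13 to 0.21 without 1 library, 0.25 without the pair) and for RPSA (-0.29 to 0.016). The members' median stayed between 0.055 and 0.23, that of the ribosomal protein rows without a symbol between -0.10 and 0.086, that of other TOP mRNAs between -0.28 and -0.14 and that of ribosome biogenesis between -0.25 and -0.092 (2 to 9 of 29 above 0). The causes were not tested. Counts of 12 or fewer limit RPL29.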

Other observations

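Ribosomal protein genes with fewer counts had higher fold changes: over the 53 tested members, mean count and log2 fold change had a Spearman correlation of -0.50, across genes of the same libraries. Members varied less within SEFA-6179 than within MCT, with a median coefficient of variation of CPM of 18.9% in SEFA-6179 livers and 25.3% in MCT livers, beside 23.6% in SEFA-6179 livers and 25.9% in MCT livers over all tested genes; this difference was not tested. For RPS29 it was 25.7% with SEFA-6179 and 33.2% with MCT.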
